A study of Glycine max with 12 samples.

Results

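NHX1, SOS1 and SALT3 are 3 soybean (Glycine max) genes for proteins that move sodium across membranes, and they were chosen by gene identifier among the 43517 gene models of the count table. All 3 had counts and all 3 passed the filter on low counts, which kept 35968 models. NHX1 is Glyma.20G229900, SOS1 is Glyma.08G092000 and SALT3, also called CHX1, is Glyma.03G171600. RNA came from plants of 1 overexpression line, OE-34, which overexpresses the CCCH zinc finger gene GmZF351, and from plants of the control cultivar Jack. Leaf and root were taken from pot-grown plants once the first trifoliate leaf had opened fully (V1 stage). There were 4 groups of 3 libraries, named here by genotype and tissue: OE leaf and OE root for OE-34, WT leaf and WT root for Jack. The labels name no salt treatment, no promoter for GmZF351 and no age beyond the stage. They do not say which cultivar was transformed to make OE-34. With 1 line, the effect of GmZF351 cannot be told apart from other differences between OE-34 and Jack. Replicates are called biological without detail of the plants pooled or sampled, and the p-values therefore speak only of the spread among these libraries.

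Plant cells keep sodium out of the cytosol with exchangers that swap sodium for protons. NHX1 encodes an exchanger of the vacuole membrane, which loads sodium or potassium into the vacuole. SOS1 encodes an exchanger of the plasma membrane, which sends sodium out of the cell and, in Arabidopsis, also takes part in loading sodium into the xylem. SALT3 encodes a member of the cation/proton exchanger family that was found as a major soybean locus for keeping sodium out of the shoot under salt, and it is known to be expressed mainly in root. The reference cultivar Williams 82 is known to carry a SALT3 allele interrupted by a retrotransposon, and no source used here gives the allele of Jack.

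The libraries held 16885874 to 19041634 counts. GmZF351 (Glyma.06G290100), the overexpressed gene, checked the genotype labels: OE libraries held 110470 counts of it in leaf and 99755 in root, and WT libraries 1 in leaf and 4 in root. RCA11 (Glyma.11G221000), the Rubisco activase gene, checked the leaf label with 25975 ± 1161 CPM (counts scaled to a common library size) in WT leaf and 3.27 ± 0.167 in WT root (SD, n = 3). Levels below are CPM on library sizes scaled by TMM, a method that sets the bulk of the genes equal between libraries. TMM factors were lowest in WT leaf (0.665 to 0.676), higher in OE leaf (0.862 to 0.889) and above 1 in root, at 1.249 to 1.276 in WT and 1.345 to 1.352 in OE. A fold change is therefore taken against most genes rather than against the total count. Replicate 3 of WT root was the least like its group, its chi-square per gene being 9.87 to replicate 1 and 7.1 to replicate 2, compared with 2.97 between those. In bulk tissue, fewer cells of a type and less RNA per cell cannot be told apart.

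All coordinates are those of annotation Wm82.a2.v1. NHX1 lies on chromosome 20 from 46410285 to 46416473 on the plus strand, with 15 exons that sum to 2720 bp. SOS1 lies on chromosome 8 from 6942771 to 6955699 on the plus strand, with 23 exons of 45 to 596 bp that sum to 3940 bp. SALT3 lies on chromosome 3 from 38610797 to 38616471 on the plus strand, with 3 exons of 367 to 851 bp that sum to 1732 bp. The RefSeq symbol table, built on Glycine_max_v4.0, gives lengths that match the models of NHX1 (99.5% of 6219 bp) and SOS1 (101% of 12850 bp). It lists SALT3 under the symbol CHX1 with 12311 bp, of which the counted model spans 46.1%. The SALT3 values are therefore those of this 3-exon model, and reads from any part of the gene outside it were not counted under SALT3.

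**Figure D1:**
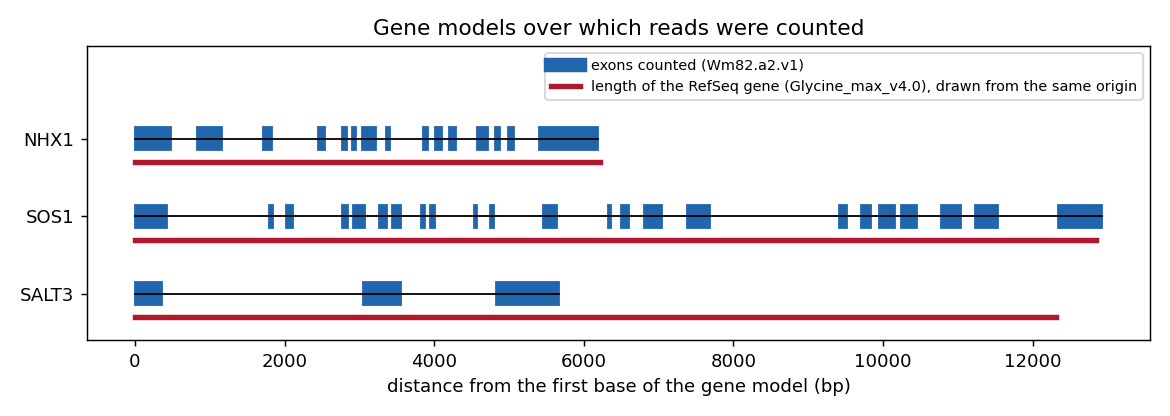
The counted gene models of NHX1, SOS1 and SALT3, with exons as blue blocks and distance in bp from the first base of each model on the horizontal axis. The red bar under each model shows the length of the RefSeq gene from the same origin, which is similar for NHX1 and SOS1 and 12311 bp against 5675 bp for SALT3.

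The clearest pattern was between tissues. SALT3 was a root transcript, SOS1 was several-fold higher in root than in leaf, and NHX1 varied least, between 54.5 and 78.1 CPM in all libraries. SALT3 had 11149 counts in the 6 root libraries and 9 in the 6 leaf libraries. SOS1 had 10854 counts in root and 1062 in leaf, and NHX1 had 8414 and 5611.

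SALT3 stood at 74.4, 73.6 and 70.5 CPM in WT root and at 88.2, 87.6 and 86.9 CPM in OE root. The leaf libraries had 1, 0 and 4 SALT3 counts in WT and 2, 2 and 0 in OE. Except for WT leaf replicate 3, at 0.33 CPM, no leaf library exceeded 3 counts, the number that a library with no count still allows (0.181 to 0.248 CPM in the leaf libraries). The ratio of root to leaf, from summed counts, was 531 in WT (95% exact interval 227 to 1635) and 1052 in OE (411 to 3861). These intervals cover counting error only, and they overlap. edgeR called the tissue difference in both genotypes, with log2FC 8.98 and adjusted p = 4.41e-27 in WT and log2FC 9.93 and adjusted p = 2.13e-28 in OE. The size rests on very few leaf counts: without WT leaf replicate 3, which held 4 of the 5 WT leaf counts, the WT log2FC was 10.58. On total counts it was 9.86 in WT and 10.53 in OE. Per length, SALT3 reached 42.1 ± 1.21 RPKM in roots of WT and 50.6 ± 0.388 in roots of OE (SD, n = 3), where RPKM is the CPM divided by the exon length in kb. That was above 94.8% to 95% of tested genes in WT root libraries and 96.4% to 96.6% in OE root libraries.

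SOS1 stood at 80.8, 82 and 81 CPM in WT root and at 14.6, 15.2 and 14.2 CPM in WT leaf. In OE it stood at 75.9, 78.4 and 74.2 CPM in root and at 13.5, 9.26 and 10.1 CPM in leaf. Every root library was above every leaf library. SOS1 was 5.54-fold higher in root in WT (log2FC 2.47, SE 0.106, edgeR adjusted p = 1.48e-20) and 6.94-fold higher in OE (log2FC 2.79, SE 0.106, edgeR adjusted p = 5.24e-22). On total counts these log2FC were larger, 3.38 in WT and 3.42 in OE, where the medians over all genes were 1.04 and 0.68. Per length, its level exceeded that of 87.2% to 87.4% of tested genes in roots of WT and 86.9% to 88% in roots of OE. In leaves it exceeded 45.7% to 47.6% of them in WT and 36.3% to 43.9% in OE.

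NHX1 stood at 70.1, 78.1 and 70.5 CPM in WT leaf and at 57.7, 57.6 and 54.5 CPM in WT root. In OE it stood at 65.1, 56.6 and 62.8 CPM in leaf and at 63.1, 61.7 and 69 CPM in root. The tissues did not overlap in WT, where root was 1.29-fold lower on this scale (log2FC -0.37, SE 0.0846, edgeR adjusted p = 0.000242). In OE the tissues overlapped, and the log2FC of root over leaf was 0.07 with a 95% interval of -0.1 to 0.24 (edgeR adjusted p = 0.437). The WT direction depends on the scaling. On total counts, NHX1 was at 71.3 ± 1.54 CPM in WT root and 49 ± 2.59 in WT leaf (SD, n = 3), and the log2FC turned to 0.54, while the median over all genes rose to 1.04. Relative to that median NHX1 was lower in WT root, at -0.5 on the log2 scale under both scalings. That likeness is fixed by construction, since a change of scaling moves all genes by about the same amount.

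WT root against WT leaf called 77.7% of all genes tested and OE root against OE leaf 77.3%, so a tissue call by itself is the usual case. The groups did not overlap in CPM for 77.5% of tested genes in WT and 80.9% in OE. By size, 95.7% of tested genes had a smaller absolute log2FC than SALT3 between the WT tissues, 71.5% a smaller one than SOS1 and 21% a smaller one than NHX1.

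**Figure D2:**
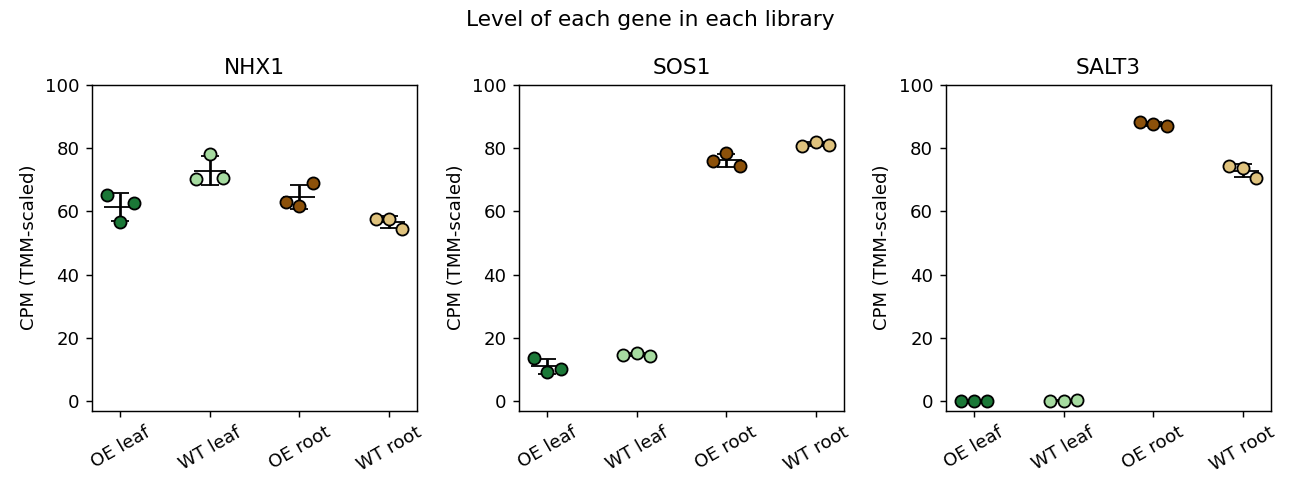
Level of NHX1, SOS1 and SALT3 in CPM scaled by TMM, with 1 point per library and bars for the mean and SD of 3 libraries. SALT3 is between 70.5 and 88.2 CPM in root and at most 0.33 in leaf, SOS1 is between 74.2 and 82 in root and 9.26 and 15.2 in leaf, and NHX1 lies between 54.5 and 78.1 in all groups.

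Whether GmZF351 overexpression goes with another level of these transcripts in an expanded leaf was asked next. On the TMM scale both genes that could be measured there were slightly lower in OE leaf. NHX1 was 1.19-fold lower, at 61.5 ± 4.38 CPM in OE leaf and 72.9 ± 4.5 in WT leaf (SD, n = 3; log2FC -0.25, SE 0.0852, edgeR adjusted p = 0.0204). The highest OE leaf library, at 65.1 CPM, was below the lowest WT leaf library, at 70.1. SOS1 was 1.34-fold lower, at 11 ± 2.28 CPM in OE leaf and 14.7 ± 0.507 in WT leaf (log2FC -0.42, SE 0.12, edgeR adjusted p = 0.00562).

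The OE leaf libraries disagreed among themselves on SOS1, with replicate 1 at 13.5 CPM close to the WT range and replicates 2 and 3 at 9.26 and 10.1. Without OE leaf replicate 1 the log2FC was -0.6 (edgeR adjusted p = 0.000175), and without OE leaf replicate 2 it was -0.31 and the call was lost (0.0567). The NHX1 call was lost without OE leaf replicate 2 (log2FC -0.19, edgeR adjusted p = 0.116), OE leaf replicate 3 (-0.24, 0.0509) or WT leaf replicate 2 (-0.2, 0.0945). In leaf 40.4% of all genes tested were called, with 18.3% of tested genes higher and 22.1% lower in OE, and 47% did not overlap between genotypes, and the absolute log2FC was smaller than that of NHX1 for 35.2% of tested genes and smaller than that of SOS1 for 52.9%. The size of both differences was thus that of an ordinary gene in this comparison.

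Both leaf differences also depend on the scaling. Scaled by total count, NHX1 was at 53.9 ± 4.43 CPM in OE leaf and 49 ± 2.59 in WT leaf, with log2FC 0.14 (edgeR adjusted p = 0.176), and SOS1 was at 9.59 ± 2.02 and 9.84 ± 0.271 CPM (SD, n = 3), with log2FC -0.03 (0.84). Under that scaling the median over all genes moved to 0.38 and the share of calls that were higher in OE leaf went from 45.4% to 80.1%. Relative to the median, NHX1 was at -0.24 and SOS1 at -0.41, against -0.25 and -0.42 with TMM. These values are nearly equal by construction and do not test the scaling, which moves all genes by about the same amount. Rubisco activase RCA11 had 946766 counts summed over the 3 WT leaf libraries and 736413 over the 3 OE leaf libraries. Each leaf library held 16892076 to 19041634 counts in total. The part of RCA11 in the difference between the scalings was not tested. SALT3 had 4 counts in OE leaf and 5 in WT leaf, a ratio of 0.607 with a 95% exact interval of 0.12 to 2.82. No difference was detectable at this depth, and the edgeR log2FC of SALT3 in leaf is not given.

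In root SALT3 was the only 1 of the 3 genes called in the TMM fit of all 12 libraries, and NHX1, given below, moved the same way. SALT3 stood at 87.6 ± 0.673 CPM in roots of OE and 72.8 ± 2.1 in roots of WT (SD, n = 3), 1.2-fold higher (log2FC 0.27, SE 0.0932, 95% interval 0.08 to 0.46, edgeR adjusted p = 0.0289). The lowest OE root library, at 86.9 CPM, was above the highest WT root library, at 74.4. The log2FC stayed between 0.24 and 0.28 when any 1 root library was left out, and between 0.27 and 0.36 under the other scalings. Leaving out a single OE root library ended the call, with edgeR adjusted p = 0.0874, 0.0805 and 0.0755 for replicates 1, 2 and 3. So did leaving out replicate 2 (0.0674) or 3 (0.0647) of WT root. Fitted on the 6 root libraries alone it had log2FC 0.29 and edgeR adjusted p = 0.000962.

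NHX1 stood at 64.6 ± 3.89 CPM in roots of OE and 56.6 ± 1.79 in roots of WT (SD, n = 3), with log2FC 0.19 (SE 0.083, edgeR adjusted p = 0.0802). The OE root libraries, from 61.7 to 69 CPM, were above the WT root libraries, from 54.5 to 57.7, but the difference missed the threshold over all genes tested. It passed in the fit of the 6 root libraries alone (log2FC 0.22, edgeR adjusted p = 0.0182), with upper-quartile factors (0.26, 0.0175) and on total counts (0.29, 0.00794). SOS1 stood at 76.1 ± 2.12 CPM in OE root and 81.3 ± 0.65 in WT root, with log2FC -0.09 and a 95% interval of -0.28 to 0.09 (edgeR adjusted p = 0.471). Its libraries did not overlap either, the highest OE root library being at 78.4 CPM and the lowest WT root library at 80.8. On total counts SOS1 was at 103 ± 3.13 and 102 ± 1.41 CPM, with a log2FC of 0. In root 30.1% of all genes tested were called, with 12% of tested genes higher and 18.1% lower in OE, and 44.2% had groups that did not overlap. The share of root calls that were higher in OE was 39.8% with TMM, 51.2% with upper-quartile factors and 56.2% on total counts. The absolute log2FC was smaller than that of SALT3 for 48.3% of tested genes, than that of NHX1 for 36.9% and than that of SOS1 for 19.4%.

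**Figure D3:**
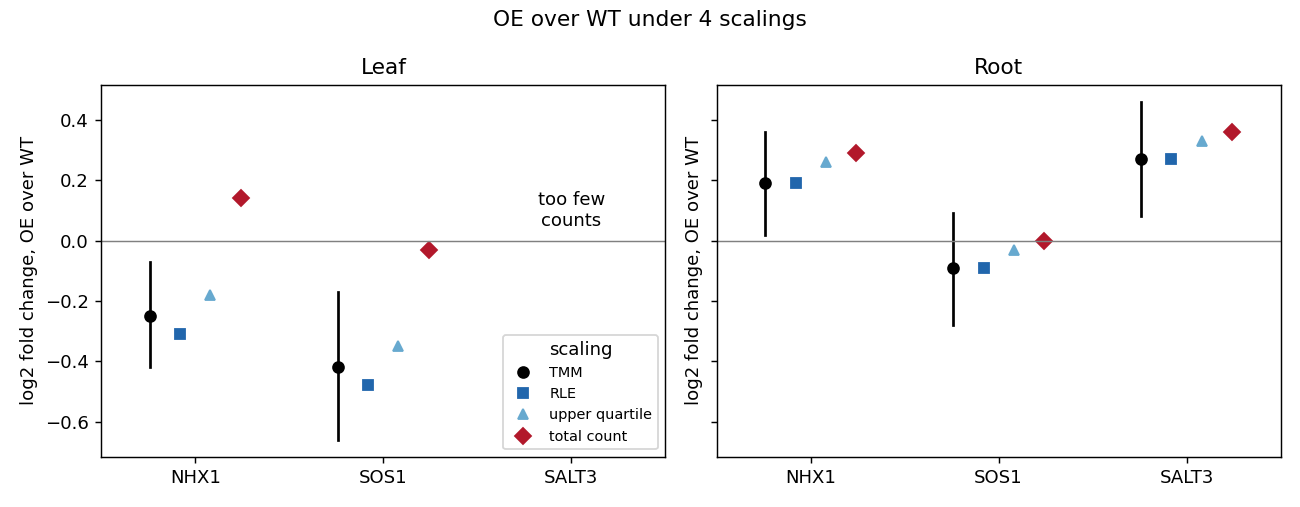
The log2 fold change of OE over WT in leaf and in root under 4 scalings of the libraries, with the 95% interval of the TMM fit as a line. In leaf NHX1 goes from -0.25 with TMM to 0.14 on total counts and SOS1 from -0.42 to -0.03, while in root SALT3 stays between 0.27 and 0.36.

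The log2FC of OE over WT for NHX1 differed between the tissues. It was 0.44 higher in root than in leaf on the log2 scale (SE 0.119, 95% interval 0.2 to 0.68, edgeR adjusted p = 0.00657), from -0.25 in leaf to 0.19 in root. This difference was called for 22.8% of all genes tested. It held without any 1 library (0.38 to 0.48, edgeR adjusted p up to 0.0315), and was 0.15 on total counts, past no threshold (0.355), where the median over all genes was -0.32. For SOS1 the difference was 0.32 (SE 0.15, edgeR adjusted p = 0.124). It passed without OE leaf replicate 1, the library close to the WT range (0.51, adjusted p = 0.0102), and in DESeq2 (0.38, adjusted p = 0.0479). For SALT3, with 4 and 5 counts in the leaf groups, the difference was too imprecise to read (0.94, SE 0.912, 95% interval -0.92 to 2.8, edgeR adjusted p = 0.513).

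By level on the TMM scale, NHX1 ran from WT leaf through OE root and OE leaf to WT root. None of the neighbours in that order differed past the threshold, with edgeR adjusted p = 0.0583 for WT leaf against OE root, 0.437 for OE root against OE leaf and 0.192 for OE leaf against WT root. On total counts the NHX1 order was another, from OE root (87 CPM) through WT root (71.3) and OE leaf (53.9) to WT leaf (49). SOS1 on the TMM scale ran from WT root through OE root and WT leaf to OE leaf. Its root groups did not differ past the threshold (0.471), whereas OE root and WT leaf did (log2FC 2.38, edgeR adjusted p = 4.16e-20), as did the leaf groups. Such pairs of groups that differ in both tissue and genotype called 78.4% (OE root against WT leaf) and 78.7% (WT root against OE leaf) of tested genes. SALT3 ran from OE root through WT root to both leaf groups, and the leaf groups could not be ordered.

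Ratios between the genes within a library do not depend on how libraries are scaled. SOS1 over NHX1, per length, was 0.992 ± 0.0306 in WT root and 0.816 ± 0.0686 in OE root, and 0.139 ± 0.0048 in WT leaf and 0.122 ± 0.0185 in OE leaf (SD, n = 3). The plasma membrane exchanger gene thus had about the level of the vacuolar one in WT root and a small part of it in leaf. SALT3 over NHX1 was 2.02 ± 0.0111 in WT root and 2.13 ± 0.138 in OE root, with OE root libraries at 2.2, 2.23 and 1.98 on both sides of the WT values. SALT3 over SOS1 was 2.1, 2.04 and 1.98 in WT root and 2.65, 2.54 and 2.66 in OE root. Every OE root library was above every WT root library in this ratio. SOS1 over NHX1 separated in root as well, at 0.742 to 0.877 in OE and 0.967 to 1.03 in WT. The share of gene pairs whose ratios separate was not computed. Of single genes tested, 44.2% had root groups that did not overlap in CPM. The SALT3 ratios rest on the length of the 3-exon model and would change with another model, but by the same factor in every library.

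Between genotypes, 4 such ratios were tested with a two-sided exact permutation test, a test that with 3 libraries against 3 cannot go below p = 0.1 whatever the size of the difference. In root SALT3 over SOS1 was higher in OE by 0.36 on the log2 scale and SOS1 over NHX1 differed by -0.28, each with exact p = 0.1 (0.2 after Benjamini-Hochberg adjustment). SALT3 over NHX1 in root differed by 0.08 (exact p = 0.4, adjusted 0.4) and SOS1 over NHX1 in leaf by -0.19 (exact p = 0.3, adjusted 0.4).

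**Figure D4:**
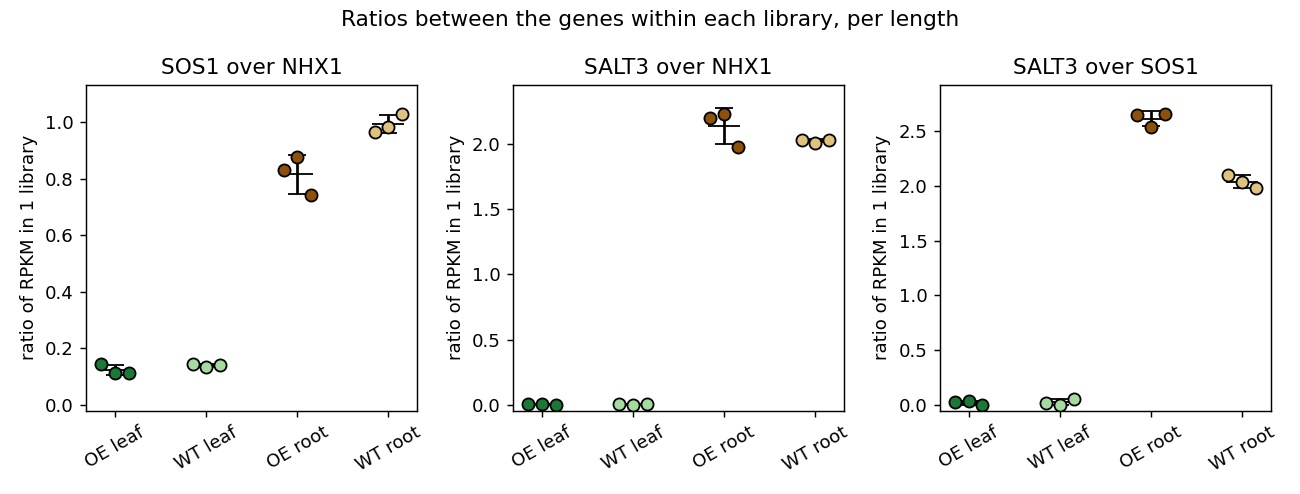
Ratios of RPKM between SOS1, NHX1 and SALT3 within each library, with 1 point per library and bars for the mean and SD of 3 libraries. SALT3 over SOS1 ranges over 1.98 to 2.1 in roots of WT and 2.54 to 2.66 in roots of OE, and the SALT3 ratios are near 0 in leaf.

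The gene models beside the 3 genes were described to see whether a whole stretch moved with them. None of the 2 models on each side overlapped its gene. Of these 12 models, 5 were higher in OE leaf and 3 in OE root by edgeR, and 0 were lower in either tissue (of all tested genes, 18.3% were called higher and 22.1% lower in leaf, and 12% higher and 18.1% lower in root). The median log2FC of the 12 was 0.34 in leaf and 0.1 in root. In leaf, where NHX1 and SOS1 were lower, Glyma.20G229800 beside NHX1 rose by 0.42 (SE 0.167), Glyma.20G230000, which starts 829 bp after NHX1, by 0.66 (SE 0.247) and Glyma.08G091800 beside SOS1 by 0.76 (SE 0.216). Glyma.08G091800 rose in root as well, by 0.57 (SE 0.153). The closest models to SOS1, Glyma.08G091900 at 1445 bp before it and Glyma.08G092100 at 1069 bp after it, had log2FC 0.26 and -0.07 in leaf, neither past the threshold.

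Around SALT3, Glyma.03G171500 ends 4693 bp before it and was scarcely counted, with 98 counts in OE root, 87 in WT root, 7 in OE leaf and 13 in WT leaf. Its log2FC of OE over WT in root was -0.02 (SE 0.371, edgeR adjusted p = 0.992). Glyma.03G171400, further upstream, rose in both tissues, by 0.48 in leaf (SE 0.137) and 0.78 in root (SE 0.141). Glyma.03G171900, downstream, rose in leaf by 1.86 (SE 0.571), from 28 counts to 135, and Glyma.08G092200, downstream of SOS1, rose in root by 0.48 (SE 0.147). The sources used here give no name for any of these models.

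The gene most like each of the 3 over the 12 libraries was found by the Pearson r of log2 CPM. For NHX1 it was Glyma.08G285400 (chromosome 8, 39493243 to 39498724), with r = 0.951, and no gene exceeded 0.99. That gene stood at 60.4 ± 4.66 CPM in WT leaf, 47.3 ± 4.56 in OE leaf, 39.2 ± 0.672 in WT root and 48.5 ± 0.787 in OE root (SD, n = 3). Like NHX1, it was highest in WT leaf and lowest in WT root on the TMM scale. That likeness follows from its choice by r over these same libraries. For SOS1 it was Glyma.06G121000 with r = 0.998 and for SALT3 Glyma.06G124000 with r = 0.999, where 237 and 669 genes exceeded 0.99. Glyma.06G124000 stood at 89.2 ± 3.5 CPM in OE root and 69.8 ± 4.37 in WT root, and at most 1.15 CPM in the leaf libraries. For SOS1 and SALT3 these r values mostly restate the split of the 12 libraries into leaf and root.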

How the data were processed

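The authors deposited raw counts, summed over the exons of each model of annotation Wm82.a2.v1 with featureCounts 2.0.1 in paired-end mode, per the file headers. No source used here names the aligner. Strand was not used in counting, so antisense reads cannot be told apart, and multi-mapping reads were left out, which can lower genes with a close duplicate. The exon length per model, also in the deposited table, gave RPKM.

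All 12 libraries entered an edgeR 4.0.16 analysis (R 4.3.3), with TMM factors, filterByExpr on the 4 groups (99.94% of counts kept) and 1 robust quasi-likelihood fit of the 4 group means with 8 residual degrees of freedom. Adjusted p-values are Benjamini-Hochberg values over all 35968 genes tested, and genes under 0.05 are called. SE is the absolute log2FC divided by the root of its F statistic. The 95% intervals of log2FC use it with the t distribution on the total degrees of freedom of the fit. That total adds to the 8 residual ones a share borrowed across genes. The fit was tested on counts simulated from its own model, which does not test the choice of scaling. Ratios of few counts have exact Clopper-Pearson intervals, and the allowance for a count of 0 is 3 counts. These cover counting error only. Every pair of replicates differed beyond sampling noise (chi-square per gene 2.26 to 9.87 over genes with at least 50 counts), and none was merged.

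The 3 genes and all lists were chosen with earlier results of these data known. Besides them the text names neighbouring models that are called or within 5000 bp, and the gene of highest r (prior count 2) per gene. A planned list of other ion transport genes stayed empty. No gene was added to it by chromosome and length, and the symbol table matched 0 identifiers. NHX1, SOS1 and CHX1 are each the only gene of that symbol there, on the same chromosome. Alternatives were DESeq2 1.42.0, RLE, upper-quartile and total-count scaling, no filter, a replicate block, the 6 libraries compared alone and leaving out each library.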

Additional observations from a re-analysis of the deposited data

Results flagged for a closer look

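The log2FC of OE over WT for NHX1 differed between tissues by the test of the difference itself, 0.44 higher in root than in leaf (edgeR adjusted p = 0.00657). On the TMM scale NHX1 was lower in 3 of 3 OE leaf libraries than in any WT leaf library and higher in 3 of 3 OE root libraries than in any WT root library. Of all tested genes, 47% did not overlap between genotypes in leaf and 44.2% in root, and the difference between tissues was called for 22.8%. The NHX1 rise in root was itself not called (edgeR adjusted p = 0.0802).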

How the results depend on the processing

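On total counts NHX1 turned to 0.14 for OE over WT in leaf and to 0.54 for WT root over leaf, and SOS1 in root to 0. There the NHX1 difference between tissues was 0.15 and SOS1 in leaf -0.03, both no longer called, and NHX1 passed in root (0.29) and between OE tissues (0.69). With upper-quartile factors NHX1 lost its call in leaf (-0.18) and between WT tissues (-0.14), and passed in root (0.26) and between OE tissues (0.29). The upper-quartile median over all genes was 0.36 between WT tissues and 0.28 between OE tissues, against 0.13 and 0.06 with TMM. The SOS1 difference between tissues passed in DESeq2 (0.38), and NHX1 in root passed with the 6 root libraries alone (0.22). Leaving out 1 library gave -0.29 to -0.19 for NHX1 and -0.6 to -0.31 for SOS1 in leaf, 0.24 to 0.28 for SALT3 in root, and 0.21 to 0.51 for the SOS1 difference, with calls lost or gained as given above. A group left with 2 libraries borrowed its spread from the others. The causes were not tested. Over all alternatives, 226 of 249 values kept direction and side of the threshold, counts of called genes staying within 1.5 times. That total includes those counts and the large tissue differences of SOS1 and SALT3. For OE over WT, with 13 alternatives each, NHX1 kept 8 in leaf and 10 in root, SOS1 kept 11 and 12, and SALT3 kept 8 in root.

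No pairing by replicate number was seen, which does not tell whether leaf and root came from the same plants. Deviations of same-numbered libraries correlated between -0.011 and 0.048 for the genotypes in leaf and -0.017 and 0.008 in root. Between the tissues they correlated between -0.057 and -0.016 in OE and -0.014 and 0.003 in WT. The replicate block changed no call (NHX1 -0.25 and SOS1 -0.42 in leaf, SALT3 0.27 in root with edgeR adjusted p = 0.0437). Depth limits SALT3 in leaf, where alternatives were not run.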
